A study of Mus musculus with 30 samples.

Results

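Plasma cells are the antibody-secreting end stage of the B cell lineage, and 143 of them were found among 46886 kept cells (0.305%) of mouse spleen. They were chosen on raw counts of UMIs (unique molecular identifiers, which mark single captured mRNA molecules). Cells were kept if they showed 200 genes or more and if no more than 10% of their UMIs were mitochondrial. A plasma cell also had at least 10 UMIs of Jchain, at least 5 UMIs summed over Xbp1, Mzb1, Sdc1 and Prdm1, and at most 1 UMI summed over the T cell genes Cd3e, Cd3d and Cd3g. Because measured RNA chose the cells, each contrast of plasma cells with other cells is given as a description and carries no test.

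A B cell that becomes a plasma cell loses the B cell programme kept up by PAX5 and BACH2 and gains one driven by IRF4, PRDM1 (Blimp-1) and XBP1. It widens its endoplasmic reticulum (ER), where heavy and light chains are folded, joined and passed to the Golgi. The heavy chain class (IgM, IgG or IgA) is set by the constant region gene in use, and the J chain joins IgM and IgA into polymers.

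Spleen cells, from which the red blood cells had been removed, went into Chromium 3′ single-cell libraries: 2 Smc3-cKO libraries and 2 Smc3-WT libraries, with 10000 cells aimed at per library. Smc3 encodes a core subunit of cohesin, the ring complex that folds chromosomes and holds sister chromatids together. The labels name neither the Cre driver nor the deleted piece of Smc3, and they do not say whether the libraries came from separate mice or from pooled ones, so the p-values reflect only how much these libraries vary, and that variation could be technical. An age of 6 to 8 weeks is given only for the mice whose dendritic cells were sorted, and no treatment is named.

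The libraries held 40367056 to 51299056 UMIs. Smc3 itself stood at 122 and 60.5 CPM (UMIs per gene scaled to a common total) in plasma cells of Smc3-cKO replicates 1 and 2, against 114 and 153 CPM in those of Smc3-WT replicates 1 and 2, with 97 and 62 UMIs behind them in the genotypes. A 3′ tag may lie outside the deleted piece, so this checks nothing about the labels. Of the kept cells, 221 barcodes occurred in more than 1 library, and 0 of them belonged to a plasma cell. Scrublet, a doublet caller, marked 4.05% and 6.41% of kept cells in the Smc3-cKO libraries and 1.03% and 5.72% in the Smc3-WT libraries, but 0 plasma cells, so none was removed.

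Smc3-cKO replicates 1 and 2 gave 65 and 22 plasma cells, and Smc3-WT replicates 1 and 2 gave 25 and 31. As a share of kept cells this was 0.911% (95% exact Clopper-Pearson interval 0.703 to 1.16) and 0.162% (0.102 to 0.245) in Smc3-cKO, against 0.204% (0.132 to 0.302) and 0.222% (0.151 to 0.315) in Smc3-WT. Smc3-cKO replicate 1 stood above the other 3 libraries, while Smc3-cKO replicate 2 was the lowest. The means were 0.536% ± 0.529 in Smc3-cKO and 0.213% ± 0.0126 in Smc3-WT (SD, n = 2 each), a difference of 0.323 percentage points (two-sided exact permutation p = 1, where 0.333 is the smallest that 2 against 2 libraries allow). Without Smc3-cKO replicate 1 the difference turned to -0.0513 points. Intervals and limits cover counting error only.

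**Figure D1:**
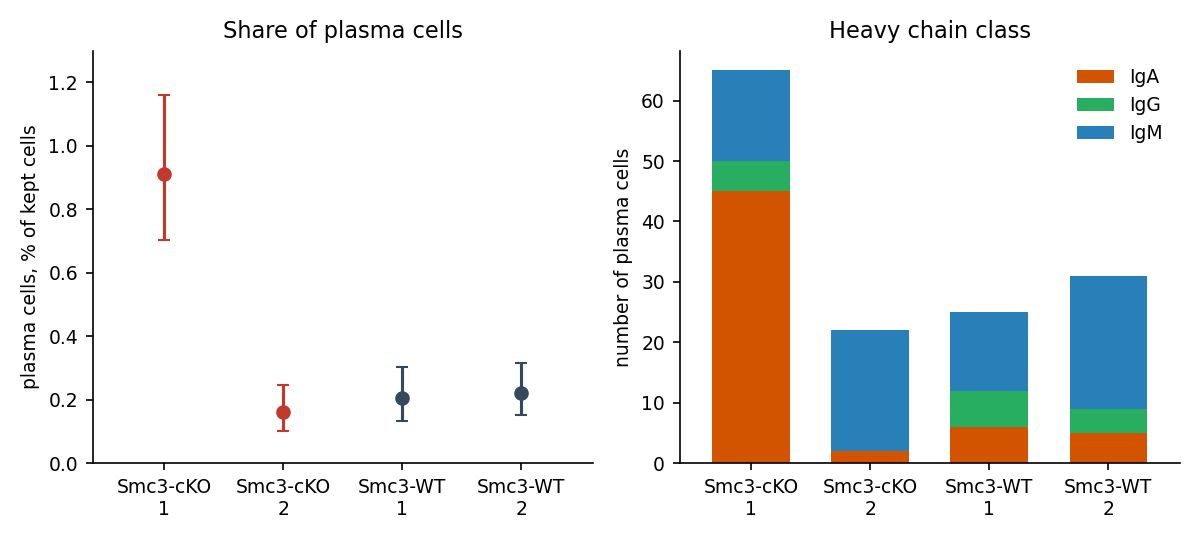
Left, plasma cells as a percent of kept cells in each library, with 95% exact binomial intervals. Right, number of plasma cells per library by heavy chain class. Smc3-cKO replicate 1 lies at 0.911% and holds 45 IgA cells, while the other 3 libraries lie between 0.162% and 0.222% and hold 2 to 6 IgA cells.

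Plasma cells were large in RNA and filled with antibody message. Their median was 10837 and 4914.5 UMIs in Smc3-cKO and 6533 and 7551 UMIs in Smc3-WT, against medians over all kept cells of 4286 and 2818 UMIs in Smc3-cKO and 2762 and 2841 UMIs in Smc3-WT. Single plasma cells ranged from 583 to 34922 UMIs. Immunoglobulin genes took a median of 24.0% and 25.2% of a plasma cell's UMIs in Smc3-cKO and 30.5% and 25.1% in Smc3-WT, with single cells between 0.457% and 61.1%. Smc3-WT replicate 1 had the highest median, and 7 cells fell under 5%.

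Few cells lay near the rule's thresholds. With the other criteria met, 6 cells had 5 to 9 Jchain UMIs (median 13012.5 UMIs in all and 50.5 UMIs of B cell markers), 5 members had 10 to 19 (15329 and 28), and 119 members had 100 or more (8533 and 4). The cells just inside and just outside the Jchain threshold therefore held more B cell marker UMIs than the bulk of the members. For the summed Xbp1, Mzb1, Sdc1 and Prdm1, 6 cells had 3 to 4 UMIs and 12 members had 5 to 7. Of the Cd3 genes, 9 members held 1 UMI, and 7 cells that met the other criteria held more.

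The genes of the rule averaged as follows over the 4 libraries, as plain CPM, and their levels only describe the choice. B cells (23716) were kept cells with at least 3 UMIs summed over a short list of B cell genes, and T cells (5502) those with at least 3 UMIs over the Cd3 genes, both with at most 2 Jchain UMIs. Jchain stood at 34540 and 38553 CPM in Smc3-cKO plasma cells and at 35908.5 and 22089 CPM in Smc3-WT plasma cells, against a mean of 24.1 CPM in B cells and 23.9 CPM in T cells. Xbp1, the ER stress transcription factor, averaged 1558 CPM in plasma cells and 43.3 CPM in B cells. Mzb1, an ER co-chaperone of the B lineage, averaged 2465 CPM in plasma cells and 151 CPM in B cells. Sdc1 (CD138), the surface proteoglycan used to sort plasma cells, averaged 141 CPM in plasma cells and 3.83 CPM in B cells, and Prdm1 averaged 235 CPM in plasma cells and 5.22 CPM in B cells. All 5 stood well above their B cell mean in each library, which the choice of the cells fixed. Of plasma cell genes that the rule did not use, Irf4 and Tnfrsf17 are given further on. Free RNA set a floor under these values: 7.96% of T cells, which do not make the J chain, had a Jchain UMI, 5.25% had an Igha UMI, 28.3% an Igkc UMI and 55.1% an Ighm UMI, at median depths of 3165 to 4719 UMIs.

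Markers of other cells were low but not absent. The 10 T cell markers summed to 22.7 to 140 CPM over the 4 libraries' plasma cells, against 3146 to 4334 CPM in T cells, in part because 3 of them are the Cd3 genes by which the rule left cells out and T cells were chosen. The 10 B cell markers summed to 1687 to 3038 CPM in plasma cells and 15958 to 17347 CPM in B cells. The 8 erythroid markers summed to 711 and 15.1 CPM in Smc3-cKO plasma cells and 1894 and 330 CPM in Smc3-WT plasma cells, against 133 to 11645 CPM in B cells. The 10 dendritic cell markers, which include Ccr9, reached 231 CPM in Smc3-cKO replicate 1 and 22.7 to 65.2 CPM in the other 3 libraries. The 7 NK markers summed to 7.56 to 26.8 CPM in plasma cells and the 5 platelet markers to 0 to 10.4 CPM. The 10 myeloid markers summed to 37.8 to 164 CPM and the 8 neutrophil markers to 19.3 to 77.6 CPM. At 0 in all libraries were Ncr1, Klrb1c, Gp9, Gp1bb, Vcan and Csf3r of these lists and dendritic Xcr1 and Cd209a. Their other members were detected.

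Chaperones that fold antibody in the ER carry a known DNA element for ER stress, bound by ATF6 and XBP1 beside NF-Y. This element, spelled CCAAT, 9 bases of any kind and CCACG on either strand, was looked for in promoters from RefSeq (GRCm38.p6, 250 bases before to 50 after the annotated start). It was present in 37 of 27025 genes with a promoter (0.137%), in 8 of 24 genes of a list of ER chaperones (33.3%) and in 2 of 15 genes of ER-associated degradation (13.3%). The 8 were Hspa5, Hsp90b1, Calr, Canx, Pdia6, Dnajc3, Creld2 and Ero1b, and the 2 were Syvn1 and Derl3. Shown are 5 of them that were higher in plasma cells than in B cells, each running from 15 bases before its first element to 15 after its last, with capitals for its fixed ends (CCAAT and CCACG, or CGTGG and ATTGG where it lies on the other strand).
Hspa5: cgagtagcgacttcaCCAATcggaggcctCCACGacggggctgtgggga
Hsp90b1: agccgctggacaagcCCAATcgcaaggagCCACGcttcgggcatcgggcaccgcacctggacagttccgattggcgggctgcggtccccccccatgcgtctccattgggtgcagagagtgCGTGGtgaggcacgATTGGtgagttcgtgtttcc
Pdia6: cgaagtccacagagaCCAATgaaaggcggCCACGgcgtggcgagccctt
Creld2: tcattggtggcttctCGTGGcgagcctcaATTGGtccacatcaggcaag
Derl3: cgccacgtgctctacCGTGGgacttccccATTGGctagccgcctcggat
They lie at chr2:34772010-34772058 (plus strand) for Hspa5, chr10:86705518-86705671 (minus) for Hsp90b1, chr12:17266476-17266524 (plus) for Pdia6, chr15:88819505-88819553 (plus) for Creld2 and chr10:75893227-75893275 (plus) for Derl3. Hsp90b1 alone of the 10 genes held 2 elements, and Derl3's starts 156 bases before the annotated start. A match in these letters is a description of the window and not a site shown to be used.

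The genes whose sequences are shown above were far higher in plasma cells than in B cells. Hspa5 (BiP), the main ER chaperone, stood at 1641 and 1649 CPM in Smc3-cKO plasma cells and 1309 and 1909 CPM in Smc3-WT plasma cells, against a B cell mean of 181 CPM. Hsp90b1 (GRP94) averaged 5563 CPM in plasma cells and 274 CPM in B cells, the disulfide isomerase gene Pdia6 averaged 587 CPM in plasma cells and 80.2 CPM in B cells, and Creld2 averaged 391 CPM in plasma cells and 9.68 CPM in B cells. Derl3, which helps pull misfolded proteins out of the ER, averaged 211 CPM in plasma cells and 2.43 CPM in B cells. Genes with the element that are not shown differed less. Canx, the lectin chaperone calnexin, had the smallest ratio of the 9 genes with the element that were measured, at 416 CPM in plasma cells and 224 CPM in B cells. Syvn1 averaged 111 CPM in plasma cells and 49.8 CPM in B cells, Calr 858 and 182 CPM, and Dnajc3 540 and 78.4 CPM. Whether the element goes with a higher level was not tested.

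Most genes of the secretory apparatus were higher in plasma cells than in B cells. In contrasts with B cells, CPM are shares of all UMIs, and immunoglobulin genes took a median of 25.7% of a plasma cell's UMIs. Igkc alone averaged 106224 CPM in plasma cells and 2152 CPM in B cells. Every other gene therefore reads lower in plasma cells on this scale, and no ratio was corrected for it. Over 7090 genes with a mean of at least 20 CPM in either, 643 (9.07%) had a ratio of at least 2 (with 5 CPM added to each mean) and 1547 (21.8%) a ratio of at most 0.5, with a median log2 ratio of -0.43. Against this, 21 of 23 ER chaperone genes, 17 of 18 genes of ER-associated degradation, 24 of 30 genes of translocation into the ER and glycosylation there, and 20 of 27 genes of ER to Golgi traffic had a ratio of at least 2, and none of them a ratio of at most 0.5. Of the stress sensors, Ern1 (IRE1, which splices Xbp1 mRNA) averaged 325 CPM in plasma cells and 26.8 CPM in B cells, and Atf6 averaged 649.5 CPM in plasma cells and 287 CPM in B cells. Eif2ak3, which encodes the sensor PERK, averaged 192 CPM in plasma cells and 215 CPM in B cells. So the genes of 2 sensors were higher in plasma cells, and that of the third was at about the B cell level on this scale.

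Smc3-WT replicate 1 was low in some secretory genes, in plasma cells and in the other cells. Sec61b, a subunit of the translocation channel, stood at 1070 and 1384 CPM in Smc3-cKO plasma cells and at 192 and 1718 CPM in Smc3-WT plasma cells. The 30 translocation genes together summed to 10438 and 13078 CPM in Smc3-cKO and to 6334 and 13159 CPM in Smc3-WT. The same library was the lowest in B cells, with 79.3 CPM of Sec61b against 113.5 to 219.7 CPM in the other 3, and in T cells, with 84.7 CPM against 130 to 274.8 CPM. The 30 translocation genes summed to 1874 CPM in its B cells, against 2012 to 2473 CPM in those of the other 3. In its T cells they summed to 2112 CPM, against 2153 to 2788 CPM. The library was thus the lowest in each of these cell types, but the gap was much wider in its plasma cells.

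**Figure D2:**
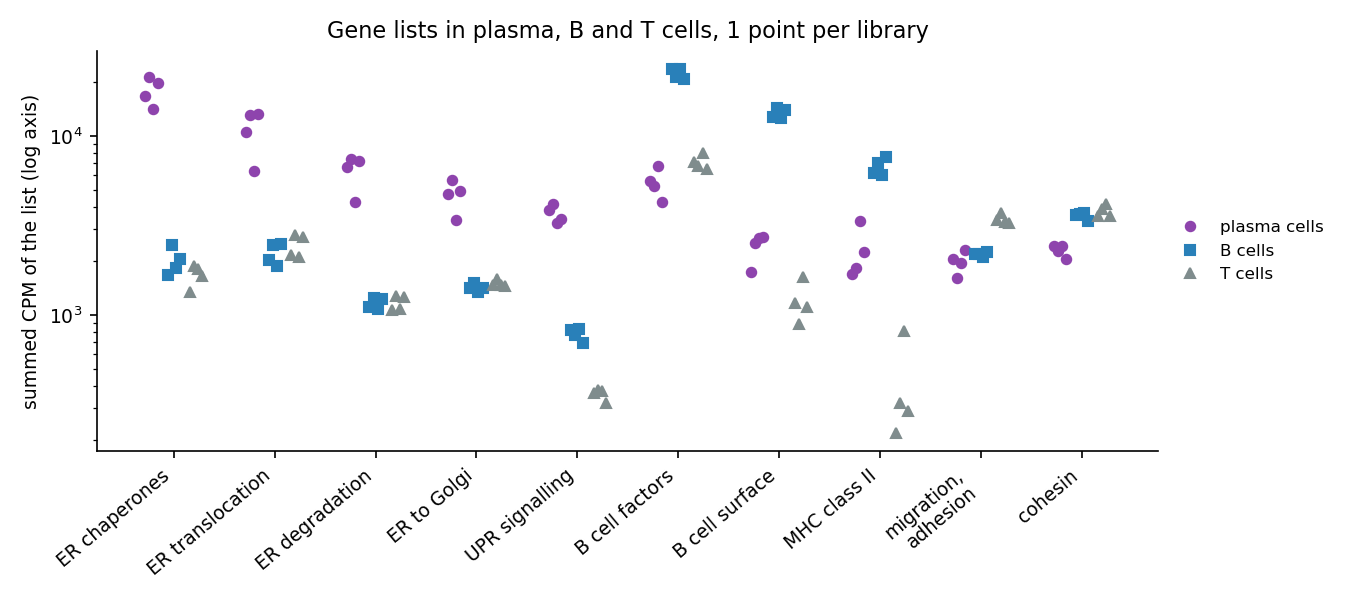
Summed CPM (log axis) of 10 gene lists in plasma cells, B cells and T cells, with 1 point per library. The ER chaperone list sums to 14127 to 21315 CPM in plasma cells and 1663 to 2446 CPM in B cells, and the B cell surface list to 1737 to 2734 CPM in plasma cells and 12641 to 14268 CPM in B cells.

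Of the other genes known from plasma cells, 22 of 26 had a ratio of at least 2 over B cells and 1 a ratio of at most 0.5. Tnfrsf17 (BCMA), the receptor for the survival factor APRIL, stood at 122 and 60.5 CPM in Smc3-cKO and 93.2 and 146 CPM in Smc3-WT plasma cells, against 0.0283 CPM in B cells. Irf4 averaged 388 CPM in plasma cells and 65.8 CPM in B cells, and Ell2, the elongation factor that favours secreted heavy chain mRNA, averaged 1054 CPM in plasma cells and 80.3 CPM in B cells. The costimulatory receptor gene Cd28 averaged 146 CPM in plasma cells and 5.77 CPM in B cells. The gene with a ratio of at most 0.5 was Cd38, at 47.4 CPM in plasma cells and 383 CPM in B cells. The receptor gene Tnfrsf13b (TACI) was near its B cell level in plain CPM, at 254 CPM in plasma cells and 223 CPM in B cells.

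The B cell programme was low. Of 20 B cell transcription factor genes, 15 had a ratio of at most 0.5 and 1 a ratio of at least 2. Pax5 averaged 145 CPM in plasma cells and 1638 CPM in B cells, Bach2 averaged 579 CPM in plasma cells and 3497 CPM in B cells, and Ebf1 averaged 615 CPM in plasma cells and 5744 CPM in B cells. The 1 exception was Pou2af1 (OBF-1), a coactivator of immunoglobulin promoters, at 630 CPM in plasma cells and 303 CPM in B cells. Of 20 B cell surface genes, 18 had a ratio of at most 0.5, and so had all 8 genes of MHC class II antigen presentation. Cd74, the invariant chain, was the least reduced of these 8, at 1558 CPM in plasma cells and 3263 CPM in B cells.

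Each plasma cell could be given a heavy chain class. A cell took the class of the single constant region gene that held more than 50% of at least 10 heavy chain UMIs, and all 143 cells passed. That gene held a median of 100% of these UMIs, at least 95% in 137 cells and at least 80% in 141, with 71.7% as the lowest. By library, IgA cells numbered 45 and 2 in Smc3-cKO and 6 and 5 in Smc3-WT, IgG cells 5 and 0 in Smc3-cKO and 6 and 4 in Smc3-WT, and IgM cells 15 and 20 in Smc3-cKO and 13 and 22 in Smc3-WT. IgA was the main class in Smc3-cKO replicate 1, and IgM was the main class in the other 3 libraries.

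As shares, IgA made up 69.2% (56.6 to 80.1) and 9.09% (1.12 to 29.2) of plasma cells in Smc3-cKO, against 24% (9.36 to 45.1) and 16.1% (5.45 to 33.7) in Smc3-WT. The means were 39.2% ± 42.5 in Smc3-cKO and 20.1% ± 5.57 in Smc3-WT (SD, n = 2 each, two-sided exact permutation p = 1). Without Smc3-cKO replicate 1 the difference of 19.1 percentage points turned to -11.0 points. IgM averaged 57.0% ± 48.0 in Smc3-cKO and 61.5% ± 13.4 in Smc3-WT (exact permutation p = 1). The 2 Smc3-cKO libraries thus lay on either side of both Smc3-WT libraries in IgA and in IgM.

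IgG was the class in 3.85% ± 5.44 of Smc3-cKO plasma cells and 18.5% ± 7.85 of Smc3-WT plasma cells, with both Smc3-WT libraries above both Smc3-cKO libraries (exact permutation p = 0.333, the smallest possible, and 1 after Benjamini-Hochberg adjustment over 3 classes). The 0 of 22 cells in Smc3-cKO replicate 2 allows a share of up to 13.6%. Over subclasses, Ighg1 was dominant in 0 and 0 Smc3-cKO cells and 1 and 3 Smc3-WT cells, Ighg2b in 3 and 0 Smc3-cKO cells and 3 and 0 Smc3-WT cells, Ighg2c in 0 and 0 Smc3-cKO cells and 2 and 1 Smc3-WT cells, and Ighg3 in 2 and 0 Smc3-cKO cells and 0 and 0 Smc3-WT cells. Ighg2c UMIs still made 1452 CPM in Smc3-cKO replicate 2, all of them in cells whose main class was IgA or IgM. The Ighg genes resemble each other, so reads may be split between them and the subclass of a cell is less certain than its class. Ighd and Ighe were dominant in no plasma cell, which allows a share of up to 2.10% of the 143.

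The light chain was lambda in 11 and 7 Smc3-cKO cells and in 5 and 4 Smc3-WT cells, and kappa in the other 116. The lambda share was 16.9% and 31.8% in Smc3-cKO, against 20% and 12.9% in Smc3-WT, and the groups overlapped (mean difference 7.92 points, two-sided exact permutation p = 0.667). By class, lambda was used in 9 of 58 IgA cells, 1 of 15 IgG cells and 17 of 70 IgM cells. Among the 27 lambda cells the highest constant gene was Iglc1 in 13, Iglc2 in 12 and Iglc3 in 2, and the near-identical Iglc2 and Iglc3 may trade reads.

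Variable segments were diverse. A 3′ library reads them thinly, so a segment was assigned only where it held at least 3 UMIs and more than 50% of the cell's UMIs of its kind. A heavy segment could be assigned in 85 cells, which used 36 segments, and a kappa segment in 96 cells, which used 40. The heavy segment used most was Ighv6-6, in 10 cells, of which 9 were IgM. The kappa segment used most was Igkv4-59, in 7 cells that were all IgA and of which 6 came from Smc3-cKO replicate 1. Iglv1 was the main Iglv segment in 50 cells, but 34 of these were kappa cells by their constant genes.

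Of 78 cells with both a heavy and a light segment, 70 different pairs were seen, and 5 pairs occurred in more than 1 cell, over 13 cells. Ighv9-3 with Igkv4-59 occurred in 4 IgA cells of Smc3-cKO replicate 1 and Smc3-WT replicate 1, and Ighv1-26 with Iglv1 in 3 IgA cells of both Smc3-cKO libraries. Of the 5 repeated pairs, 2 lay within 1 library. Members of a segment family are near-identical in sequence, and no junction was read, so a shared pair does not show a shared clone.

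A fraction of plasma cells expressed genes of cell division. With at least 3 of 10 cycle genes (among them Mki67 and Top2a) as the criterion, 14 and 2 Smc3-cKO plasma cells and 4 and 7 Smc3-WT plasma cells were cycling. The shares were 21.5% and 9.09% in Smc3-cKO, against 16% and 22.6% in Smc3-WT, and they overlapped (mean difference -3.98 points, two-sided exact permutation p = 0.667). B cells met the criterion in 0.807% to 2.94% of cells. With each cell thinned to 2000 UMIs outside immunoglobulin genes, 9 of 63 and 1 of 19 Smc3-cKO plasma cells and 1 of 24 and 5 of 28 Smc3-WT plasma cells still met it.

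Cycling plasma cells held more RNA and a smaller immunoglobulin share. Their median was 14438.5 and 15514.5 UMIs in Smc3-cKO and 14589.5 and 12522 UMIs in Smc3-WT, against 9416 and 4740 UMIs in the other plasma cells of Smc3-cKO and 5437 and 7233 UMIs in those of Smc3-WT. Immunoglobulin took a median of 7.88% and 8.00% of UMIs in cycling cells of Smc3-cKO and 17.7% and 11.9% in those of Smc3-WT, against 31.6% and 26.4% in the other cells of Smc3-cKO and 30.5% and 31.5% in those of Smc3-WT. The share was lower in cycling cells in each of the 4 libraries. The criterion finds cells more readily when they have many UMIs outside immunoglobulin genes, and neither median was recomputed on the thinned cells. Of the 7 plasma cells with under 5% immunoglobulin, 6 were cycling.

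**Figure D3:**
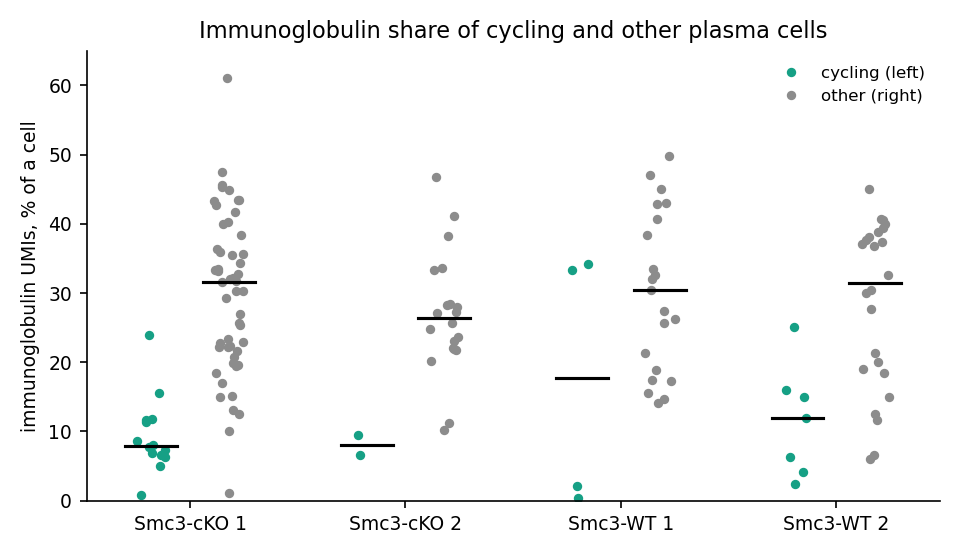
Immunoglobulin UMIs as a percent of all UMIs of a cell, with 1 point per plasma cell, cycling cells left and other cells right in each library, and bars at the medians. The medians of cycling cells (7.88% to 17.7%) lie under those of the other cells (26.4% to 31.6%).

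IgA plasma cells were then set against IgM plasma cells of the same library. UMIs were summed per library and class and fitted with edgeR's quasi-likelihood test, with the library as a block and Benjamini-Hochberg adjustment over all 2413 genes tested. Levels from this fit are CPM scaled by TMM factors, and differences are log2 fold changes with their SE. It covers Smc3-cKO replicate 1 and both Smc3-WT libraries, which held 45, 6 and 5 IgA cells and 15, 13 and 22 IgM cells. At an adjusted p under 0.05, 37 genes (1.53%) were higher and 71 (2.94%) lower in IgA cells, not counting the heavy chain genes that defined the classes. Smc3-cKO replicate 2 had only 2 IgA cells and was left out.

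Runx2, a transcription factor best known from bone, separated the classes most cleanly. It stood at 567, 582 and 547 CPM in IgA cells of Smc3-cKO replicate 1, Smc3-WT replicate 1 and Smc3-WT replicate 2, against 8.44, 10.8 and 7.38 CPM in their IgM cells. The 3 values of either class lay close together and far from those of the other class (log2 difference 5.88, SE 0.57, edgeR adjusted p = 7.31e-07). A Runx2 UMI was found in 55 of 58 IgA cells and in 5 of 70 IgM cells, and after thinning to 2000 UMIs in 52.6% of IgA cells and 2.99% of IgM cells. In Smc3-cKO replicate 2, which the fit did not use, the 2 IgA cells held 19 Runx2 UMIs and the 20 IgM cells held 2. Of these 19, 18 lay in a single cycling cell of 19439 UMIs, and the other IgA cell held 1. B cells had a Runx2 UMI in 3.28% and T cells in 15.01%, both without thinning. The unthinned IgM share lay between these, while the thinned one (2.99%) lay under that of B cells.

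Several genes of homing to mucosal tissue were higher in IgA cells. Ccr9, the receptor for the gut chemokine CCL25, stood at 298, 129 and 78.1 CPM in IgA cells and at 16.9, 21.6 and 0 CPM in IgM cells (log2 3.76, SE 0.73, edgeR adjusted p = 0.00251). It was detected in 37 of 58 IgA cells and 4 of 70 IgM cells, and after thinning in 24.6% of IgA cells and 4.48% of IgM cells, with a UMI in 17.5% of T cells unthinned. Ccr10, the receptor for the mucosal chemokine CCL28, stood at 107, 291 and 0 CPM in IgA cells and was not found in 70 IgM cells, which allows a share of up to 4.29% (at least 12.1-fold higher in IgA cells, against 3 counts over the IgM cells, edgeR adjusted p = 0.0113). Its call was lost with DESeq2 (adjusted p = 0.959) and without the library block (0.0825), while Ccr9 passed in the 6 alternatives that changed the fit and gave it a value. It had no value without Smc3-cKO replicate 1, without Smc3-WT replicate 1, without cycling cells or with at least 20 Jchain UMIs.

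Itgb7 and Itga4 encode the chains of the integrin that binds the gut vessel protein MAdCAM-1. Itgb7 stood at 148, 259 and 130 CPM in IgA cells and 33.8, 10.8 and 29.5 CPM in IgM cells (log2 2.65, SE 0.68, edgeR adjusted p = 0.0234). Itga4 stood at 713, 873 and 2708 CPM in IgA cells and 228, 475 and 686 CPM in IgM cells (log2 1.54, SE 0.34, edgeR adjusted p = 0.00695). In each library both were higher in IgA cells, but the Itgb7 call was lost without Smc3-WT replicate 1 (adjusted p = 0.140) and that of Itga4 without Smc3-cKO replicate 1 (0.0654). Without cycling cells neither passed, although the folds were about as large (log2 2.46 and adjusted p = 0.139 for Itgb7, 1.52 and 0.0625 for Itga4), and neither passed among cells with at least 20 Jchain UMIs (0.0881 for Itgb7 and 0.0607 for Itga4). Itgb7 did not pass with DESeq2 (0.106), nor Itga4 without the library block (0.255). Of 11 tested genes of a list of migration and adhesion, 6 were higher and 0 lower (median log2 1.25, against 0.06 over all genes fitted). Cd44, a hyaluronan receptor, and Klf2, a factor of lymphocyte traffic, made up the 6. The Cd44 call (adjusted p = 0.0453) was lost on leaving out any of the 3 libraries (0.0708 to 0.388), and Klf2 was at 64.7 and 64.8 CPM in the 2 classes of Smc3-WT replicate 1.

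**Figure D4:**
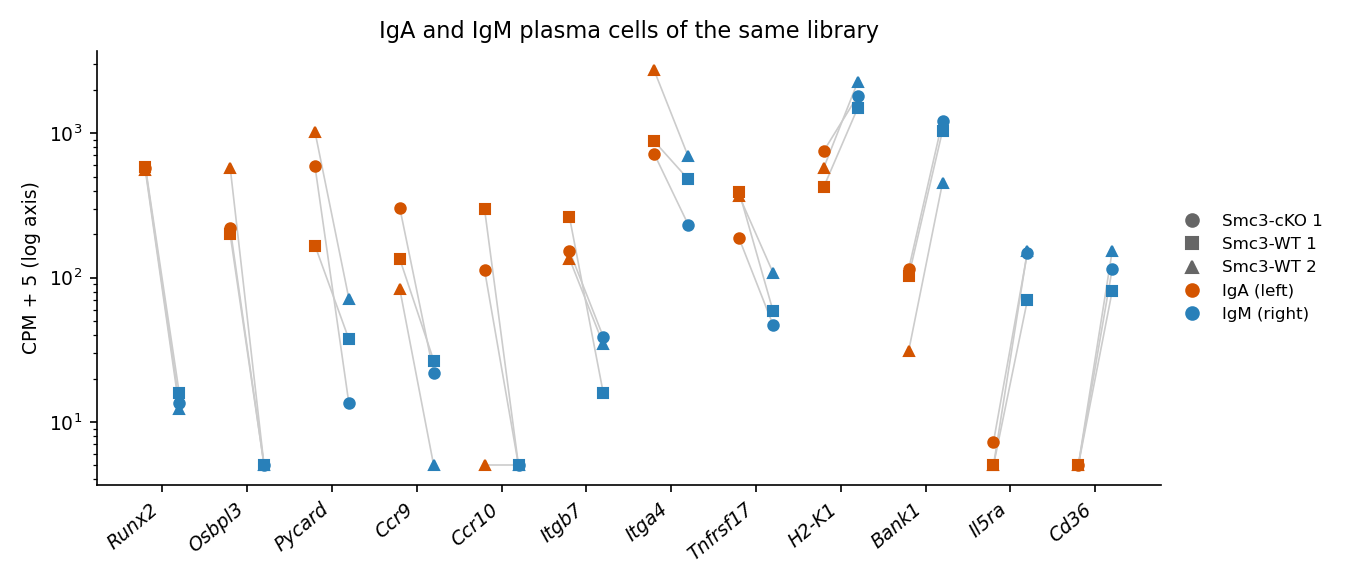
TMM-scaled CPM plus 5 (log axis) of 12 genes in IgA (left) and IgM (right) plasma cells, with lines joining the classes of a library. The 3 libraries are Smc3-cKO replicate 1 and Smc3-WT replicates 1 and 2. Runx2 lies between 547 and 582 CPM in IgA cells and between 7.38 and 10.8 CPM in IgM cells, and Osbpl3 is at 0 in all IgM cells.

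The genes with the largest folds toward IgA, apart from those above, fall into no single function. Osbpl3, which encodes an oxysterol-binding protein, stood at 214, 194 and 573 CPM in IgA cells, in 39 of 58 cells, and was not found in 70 IgM cells (at least 26.3-fold higher, edgeR adjusted p = 1.92e-05). Pycard (ASC), the adaptor of inflammasomes, stood at 583, 162 and 1015 CPM in IgA cells and 8.44, 32.4 and 66.4 CPM in IgM cells (log2 4.07, SE 0.54, edgeR adjusted p = 5.76e-05). Il18, a cytokine that inflammasomes process, stood at 107, 129 and 286 CPM in IgA cells and 0, 0 and 14.8 CPM in IgM cells (adjusted p = 0.00282). Both were thus higher in IgA cells of each library. Pik3r5, a regulatory subunit of PI3 kinase, rose by a log2 of 3.94, the sialyltransferase gene St6galnac3 by 3.13, the RNA-binding protein gene Cpeb2 by 3.11, and Sorcs2, Anxa2 and Ahnak by 3.40, 3.57 and 3.33. The kappa segment Igkv9-124 was dominant in 3 cells, all IgA.

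Of 15 tested genes of plasma cell survival, 2 were higher (Tnfrsf17 and Cd44) and 1 lower (Il5ra) in IgA cells, with a median log2 of -0.17 and 5 positive. Tnfrsf17 (BCMA) stood at 182, 388 and 365 CPM in IgA cells and 42.2, 54.0 and 103 CPM in IgM cells (log2 2.18, SE 0.45, edgeR adjusted p = 0.00405, and 0.0654 without Smc3-cKO replicate 1). Of 22 tested ER chaperone genes, 0 passed in either direction (median log2 0.46, 20 of them positive), and 0 passed among 16 genes of ER-associated degradation and 28 of translocation. The secretory lists therefore showed no gene past the threshold, and the median log2 of all genes fitted was 0.06. H2-K1, the heavy chain gene of an MHC class I molecule, was lower in IgA cells, at 749, 420 and 573 CPM, against 1806, 1490 and 2257 CPM in IgM cells (log2 -1.64, SE 0.33, edgeR adjusted p = 0.00322).

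Lower in IgA cells were genes of the B cell programme. Of 14 tested B cell transcription factor genes 4 were lower and 1 (Klf2) higher, and of 12 B cell surface genes 4 were lower and 0 higher (median log2 -2.42). Bank1, a B cell scaffold protein gene, stood at 109, 97.0 and 26.0 CPM in IgA cells and 1215, 1037 and 450 CPM in IgM cells (log2 -3.52, SE 0.43, edgeR adjusted p = 2.27e-05). Pax5 stood at 29.6, 0 and 26.0 CPM in IgA cells and 515, 648 and 95.9 CPM in IgM cells (log2 -4.14, SE 0.58, edgeR adjusted p = 8.36e-05). Bach2 stood at 146, 64.7 and 208 CPM in IgA cells and 2802, 2656 and 243 CPM in IgM cells (log2 -3.57, SE 0.59, edgeR adjusted p = 6.49e-04).

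Much of this rested on few cells. The 3 IgM cells with fewer than 20 Jchain UMIs held 73.8% of the Bach2, 59.7% of the Pax5, 58.2% of the Ebf1, 43.7% of the Ms4a1 and 34.0% of the Bank1 UMIs of all 70 IgM cells, and no IgA cell had so little Jchain. With members of at least 20 Jchain UMIs, an alternative chosen after seeing the data, the edgeR adjusted p was 0.629 for Bach2, 0.388 for Ebf1, 0.312 for Aff3 and 0.254 for Ms4a1. It was 8.89e-04 for Bank1, 8.89e-04 for Ctss and 9.82e-04 for Foxp1, 5.87e-04 for H2-K1 and 2.23e-05 for Runx2, and Pax5 had no value in that fit. In all, 45 genes passed in that fit, of which 38 were among the 108.

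**Figure D5:**
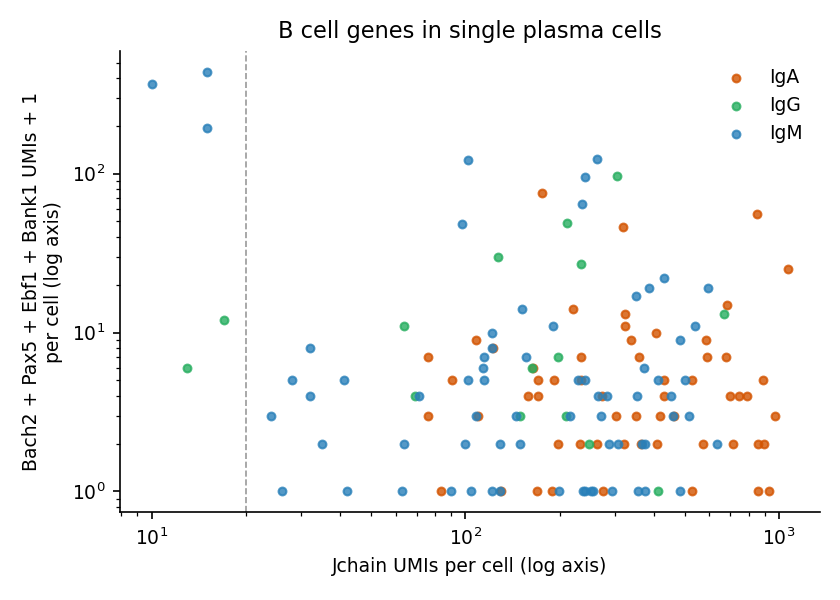
UMIs of Bach2, Pax5, Ebf1 and Bank1 together (plus 1, log axis) against Jchain UMIs (log axis) in the 143 plasma cells, coloured by heavy chain class, with a dashed line at 20 Jchain UMIs. The 3 IgM cells left of the line are the highest in B cell genes, and no IgA cell lies left of it.

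Other genes lower in IgA cells included surface receptors. Cd36, a scavenger receptor, was not found in 58 IgA cells, which allows a share of up to 5.17%, and stood at 110, 75.6 and 148 CPM in IgM cells, in 18 of 70 cells (at least 20.7-fold lower in IgA cells, edgeR adjusted p = 0.00468). Il5ra, the interleukin-5 receptor chain, stood at 2.28, 0 and 0 CPM in IgA cells and 144, 64.8 and 148 CPM in IgM cells (log2 -5.66, SE 1.12, edgeR adjusted p = 0.00287). It was detected in 1 of 58 IgA cells and 22 of 70 IgM cells, and after thinning in 0% of IgA cells and 23.9% of IgM cells. Pdzd2 and the ubiquitin ligase gene March1 fell by 6.23 and 4.27 on the log2 scale, and the orexin receptor gene Hcrtr2 was at 0 in IgA cells and at 29.5 to 186 CPM in IgM cells. Of all plasma cells, 5.59% had a Pdzd2 UMI, 16.8% a March1 UMI and 4.90% an Hcrtr2 UMI, against 14.1%, 79.4% and 9.34% of B cells. How far these values rest on the IgM cells with few Jchain UMIs is not given here.

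The number of genes called depended on the tool and the libraries. It was 45 with DESeq2, 45 without the library block, 35 without Smc3-cKO replicate 1 (31 of them among the 108) and 37 without cycling cells (35 of them among the 108). The median depth was 10419 UMIs in IgA cells and 6204 UMIs in IgM cells, and the part of depth in these differences was not tested beyond the thinned shares given above.

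IgG plasma cells were compared with IgM plasma cells in the same 3 libraries, with 5, 6 and 4 IgG cells and 15, 13 and 22 IgM cells. Of 1977 genes tested, 10 (0.506%) were higher and 30 (1.52%) lower in IgG cells by edgeR. Slpi, a secreted protease inhibitor, led them, at 1989, 1953 and 4430 CPM in IgG cells and 209.5, 13.0 and 49.3 CPM in IgM cells (log2 5.09, SE 0.55, edgeR adjusted p = 3.82e-17). It was found in 12 of 15 IgG cells and 16 of 70 IgM cells, and after thinning in 53.3% of IgG cells and 14.9% of IgM cells, with a UMI in 2.93% of B cells. Its IgG values exceeded its IgM values in each library, although 3 cells held 82.5% of the IgG cells' Slpi UMIs.

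Some genes of the IgA comparison recurred for IgG. Pycard stood at 682, 31.0 and 770 CPM in IgG cells and 9.97, 38.9 and 74.0 CPM in IgM cells, Pik3r5 at 97.5, 403 and 313 CPM in IgG cells and 9.97, 26.0 and 32.9 CPM in IgM cells, and Cpeb2 at 370, 868 and 433 CPM in IgG cells and 79.8, 51.9 and 65.8 CPM in IgM cells. Both comparisons use the same IgM cells, so this recurrence is not independent. Pycard in Smc3-WT replicate 1 went the other way. The mitochondrial chaperonin genes Hspd1 and Hspe1 were also higher, by a log2 of 2.63 and 1.73.

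Lower in IgG cells were the stress response gene Sesn1 (58.5, 93.0 and 0 CPM in IgG cells and 1057, 662 and 304 CPM in IgM cells, log2 -3.82, SE 0.62, edgeR adjusted p = 2.16e-07), Bach2 (log2 -3.21, but -0.11 with an adjusted p of 0.9995 among cells with at least 20 Jchain UMIs), Parp8, Nfatc1, Sox5 and Bcl2, which encodes an inhibitor of cell death (log2 -2.23). The lambda gene Iglc1 was lower too, in cells of which 1 of 15 used lambda. Ighv6-6 was at 0 in IgG cells and at 49.9 to 230.2 CPM in IgM cells. The count of 40 called genes fell to 9 with DESeq2, 2 without the library block, 18 without Smc3-cKO replicate 1, 6 without Smc3-WT replicate 1, and 6 with at least 20 Jchain UMIs. Without cycling cells it was 0 by edgeR, with 69 genes at an unadjusted p under 0.05. Slpi then had a log2 difference of 4.39 with an adjusted p of 0.318. Both the fit without cycling cells and that with at least 20 Jchain UMIs also lacked Smc3-WT replicate 2. That library then held fewer than 4 IgG cells. Leaving out Smc3-WT replicate 2 alone gave 29 genes.

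Cycling plasma cells were compared with the other plasma cells in the same 3 libraries (14, 4 and 7 cycling cells and 51, 21 and 24 others). Of 3516 genes tested, 202 (5.75%) were higher and 135 (3.84%) lower in cycling cells by edgeR, with the listed cycle genes left out of the count. Kif15, a spindle motor gene, stood at 113, 222 and 197 CPM in cycling cells and was not found in 116 others (at least 41.2-fold higher, edgeR adjusted p = 7.50e-05). Parpbp, Cit, Prr11, Sgo2a, Ttk, Kif18b and Sgo1 were likewise at 0 in the others (at least 20.2 to 30.0-fold). The class was chosen on genes of this process, so these genes of division follow from the choice in part.

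Of the cohesin genes, Rad21, the kleisin subunit, was higher in cycling cells, at 314, 222 and 276 CPM, against 82.1, 88.4 and 50.1 CPM in the others (log2 1.92, SE 0.34, edgeR adjusted p = 0.00158). It was the only 1 of 13 tested genes of cohesin and its regulators past the threshold, beside 5.75% of all genes called higher, so the list does not stand out. Rad21 itself passed in the 9 alternatives that changed the fit.

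Antibody genes and several plasma cell genes were lower in cycling cells. Igkc stood at 53926, 57394 and 49452 CPM in cycling cells and 200693, 204125 and 178215 CPM in the others (log2 -1.86, SE 0.29, edgeR adjusted p = 4.15e-04, and 0.311 without Smc3-WT replicate 2). Jchain and Sdc1, which the rule used, had log2 differences of -2.19 and -1.68. Of 24 other plasma cell genes tested 10 were lower and 0 higher (median log2 -1.20, against -0.02 over all genes fitted). Among these were Slpi (log2 -3.36), Trp53inp1 (-1.77), the BCMA gene Tnfrsf17 (-1.51), Eaf2 (-1.30), the disulfide isomerase gene Txndc5 (-1.29), Tent5c (-1.20) and Edem1 (-1.20). The Slpi call was lost with DESeq2 (adjusted p = 0.0695) and in edgeR without the library block (0.228). Without that block the edgeR calls were also lost for Jchain (0.155), Igkc (0.228), Txndc5 (0.209), Edem1 (0.328) and Tnfrsf17 (0.171), while Sdc1 passed (0.0465). Jchain did not pass without Smc3-WT replicate 2 either (edgeR adjusted p = 0.182). With DESeq2, Sdc1 (0.0841) and Tnfrsf17 (0.192) did not pass. Heavy chain classes were not matched. Cycling IgA and IgM cells numbered 12 and 1 in Smc3-cKO replicate 1, 0 and 3 in Smc3-WT replicate 1, and 1 and 5 in Smc3-WT replicate 2. Without Smc3-cKO replicate 1 the calls were lost for Txndc5 (adjusted p = 0.245), Edem1 (0.192), Sdc1 (0.148) and Tnfrsf17 (0.0829). Among cells with at least 20 Jchain UMIs they were lost for Txndc5 (edgeR adjusted p = 0.0801), Edem1 (0.298) and Tnfrsf17 (0.125). Sdc1 (0.00726) and Igkc (0.00905) passed there. That fit also lacked Smc3-WT replicate 1, which then held fewer than 4 cycling cells. Genes of B cells moved with the plasma cell genes. Of 7 tested B cell markers 4 were lower (Cd79a, Cr2, Bank1 and Ebf1, median log2 -1.15). So were 3 of 11 B cell surface genes and 3 of 15 B cell transcription factor genes. Their part in the result was not tested.

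The remaining secretory genes mostly did not pass. Of 23 ER chaperone genes 1 (Txndc5) was lower, of 18 genes of ER-associated degradation 1 (Edem1) was lower, and of 30 translocation genes 0 passed. Ern1, the gene of the sensor IRE1, stood at 206, 259 and 303 CPM in cycling cells and 430, 619 and 501 CPM in the others (log2 -1.01, SE 0.31, edgeR adjusted p = 0.0496). This call was lost on leaving out any 1 library (0.0954 to 0.408) and among cells with at least 20 Jchain UMIs (0.248). Of 13 tested survival genes 4 were lower, namely Bcl2 (log2 -1.63), the kinase gene Pim1 (-1.57), the interleukin-6 receptor chain gene Il6st (-1.91) and Tnfrsf17, and 9 did not pass. All 4 calls were lost without Smc3-cKO replicate 1 (adjusted p = 0.0829 to 0.179) and without the library block (0.0581 to 0.214). With at least 20 Jchain UMIs, Il6st (edgeR adjusted p = 0.0514) and Tnfrsf17 (0.125) did not pass, while Bcl2 (2.92e-04) and Pim1 (0.00183) did. The total number of genes called was 337, and it was 143 with DESeq2, 116 without the library block and 112 without Smc3-cKO replicate 1.

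Smc3-cKO and Smc3-WT plasma cells were compared over 2 libraries each. By edgeR, of 3752 genes tested 0 were higher (0%) and 2 were lower (0.0533%) in Smc3-cKO plasma cells, with 63 at an unadjusted p under 0.05 and 7 called by DESeq2. Both genes were kappa variable segments. Igkv12-89 was at 0 and 0 CPM in Smc3-cKO and at 409 and 245 CPM in Smc3-WT (at least 76.5-fold lower, against 3 counts over the Smc3-cKO libraries, edgeR adjusted p = 0.0257), and Igkv5-43 was at 0 and 8.13 CPM in Smc3-cKO and 1245 and 552 CPM in Smc3-WT (log2 -8.93, SE 1.06, edgeR adjusted p = 0.0268).

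Each of these calls came from single cells. Igkv12-89 was the main kappa segment of 1 IgM cell in either Smc3-WT library, with 68 and 55 UMIs, and Igkv5-43 had 207 of its UMIs in 1 cell of Smc3-WT replicate 1 and 123 in 1 cell of Smc3-WT replicate 2. Without Smc3-cKO replicate 1 neither passed (adjusted p = 0.999 for both), and 0 genes did when immunoglobulin genes were left out, with 56 at an unadjusted p under 0.05. Next in order of p, and not past the threshold, were Igkv12-44, Ighv4-1 and Ighg1 (edgeR adjusted p = 0.0578, 0.0578 and 0.0751), all 3 of which passed with DESeq2 (3.44e-06, 1.84e-04 and 0.0083) and with the replicate number as a block.

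Genes named above for plasma cells were also looked at between the genotypes. Xbp1 stood at 2081 and 2236 TMM-scaled CPM in Smc3-cKO and 1390 and 1250 CPM in Smc3-WT (log2 0.71). Prdm1 stood at 288 and 333 CPM in Smc3-cKO and 156 and 271 CPM in Smc3-WT (log2 0.52). Both are genes of the rule, so these values are only a description. Runx2, which was higher in IgA cells, stood at 390 and 171 CPM in Smc3-cKO and 114 and 116 CPM in Smc3-WT (log2 1.34, adjusted p = 1), where Smc3-cKO replicate 1 is the library with 69.2% IgA cells. In each list, from ER chaperones (23 tested, median log2 -0.05) to cohesin (13 tested, -0.04) and MHC class II (4 tested, -1.07), 0 genes passed, and the median over all genes was -0.04.

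Smc3 in this fit had a log2 difference of -0.53 (SE 0.46, edgeR adjusted p = 1) in plasma cells and of -0.08 in B cells. In 23716 B cells of the same libraries, 0 of 13985 genes passed by edgeR in either direction (0%), with 324 at an unadjusted p under 0.05. The difference of the Smc3-cKO effect between plasma cells and B cells passed for 16 genes in the higher direction (0.121%) and 14 in the lower (0.106%) of 13242. It passed for both kappa segments named above, which were picked from the same plasma cell counts, and for Smc3 it was -0.36 on the log2 scale (SE 0.44, adjusted p = 1).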

How the data were processed

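The deposited files held raw counts of UMIs for 32285 genes in each cell barcode. Cell Ranger 7.0.0 produced them, per the file headers, with mm10 named in the submitters' processing notes; how the authors filtered barcodes is not given in the sources used here. The 4 single-cell libraries were used, and the other 26 of 30 samples were not analysed here. Members and gene lists were chosen with earlier results of these data known.

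UMIs were summed per library (and class) and tested with edgeR 4.0.16 (limma 3.58.1, R 4.3.3) by the quasi-likelihood test with TMM scaling, filterByExpr and Benjamini-Hochberg adjustment over all genes tested, at a threshold of 0.05. DESeq2 1.42.0 was an alternative. Tables and shares were made with Python 3.11.15, numpy 2.4.6, pandas 2.3.3 and scipy 1.17.1, doublets were called with Scrublet in scanpy 1.11.5 and plots drawn with matplotlib 3.10.9. The code was tested on simulated data. Class comparisons needed at least 4 cells of either class in a library, chosen after the numbers of cells were seen, since the planned 10 left 1 library, or none for IgG. Heavy constant genes were left out of the class calls, and listed cycle genes out of the cycling calls. Where cells were thinned, each was drawn down to 2000 UMIs.

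Genes were named by rule: in either direction the 12 genes of largest fold that passed, lay on the same side in all libraries and averaged 50 CPM or more where they were higher; where fewer than 5 passed, also the 5 with the smallest p; the rule's markers; all passing list members and the 4 highest of a list; the 20 most abundant genes; and all constant genes. Not in the annotation under these symbols were Fam46c, Ero1a, Ero1b, Ddit3, H2az1 and Atp5f1b. Alternatives were other scaling, filters, tools and blocks, stricter members, and leaving out libraries.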

Additional observations from a re-analysis of the deposited data

Results flagged for a closer look

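The fitted Smc3-cKO effect differed between plasma cells and B cells for both kappa segments named above. This is edgeR's test of the difference itself, with Benjamini-Hochberg adjustment over 13242 genes. Both segments were picked because they passed in the same plasma cell counts, so the test adds no independent support. The difference was -13.6 on the log2 scale for Igkv12-89 (SE 2.1, adjusted p = 2.12e-07) and -8.45 for Igkv5-43 (SE 0.79, adjusted p = 5.54e-23). Igkv12-89 had 0 UMIs in Smc3-cKO plasma cells, so its fitted value is neither an exact size nor a bound: fitted separately, the effect of Smc3-cKO was -9.57 in plasma cells and -0.60 in B cells. In B cells Igkv12-89 stood at 0.626 and 1.70 CPM in Smc3-cKO and 1.33 and 2.20 CPM in Smc3-WT, and Igkv5-43 at 1.04 and 2.15 CPM in Smc3-cKO and 1.11 and 3.13 CPM in Smc3-WT. In plasma cells the Smc3-WT values came almost wholly from 1 cell per library and segment.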

How the results depend on the processing

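Of the genes called between the genotypes (2), DESeq2 gave 7, no filter on low counts 27, leaving out immunoglobulin genes 0, equal numbers of cells per library 4, Jchain of at least 20 UMIs 4 and leaving out cycling cells 1. With the replicate block 12 genes were called. The replicate numbers are only shared: deviations of same-numbered libraries correlated at 0.144 over 3752 genes, with only 2 pairs. Leaving out 1 library gave 0 to 85 genes (0 without Smc3-cKO replicate 1, 27 without Smc3-cKO replicate 2, 35 without Smc3-WT replicate 1 and 85 without Smc3-WT replicate 2). An arm then has 1 library, assumed to vary like the other.

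For IgA against IgM (108), DESeq2 and the fit without the library block each gave 45, Jchain of at least 20 UMIs 45, leaving out cycling cells 37, and leaving out 1 library 35 to 146. For IgG against IgM (40), the same gave 9, 2, 6, 0 and 6 to 29. The IgG fits with stricter Jchain and without cycling cells also lacked Smc3-WT replicate 2. For cycling against other cells (337), DESeq2 gave 143, no library block 116, and leaving out 1 library 112 to 308. Jchain of at least 20 UMIs, which also dropped Smc3-WT replicate 1, gave 356, of which 218 were among the 337. In B cells leaving out 1 library gave 0 to 6 genes, and the difference between plasma cells and B cells (30) gave 9 to 37.

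Differences in shares changed direction with single libraries. Leaving out 1 library gave -0.0513 to 0.697 points for plasma cells among kept cells, -11.0 to 49.2 points for IgA, and -10.2 to 2.25 points for cycling cells, which turned positive without Smc3-cKO replicate 2. For IgM it was -38.4 to 29.4 points, with 29.4 points without Smc3-cKO replicate 1 and 4.99 points without Smc3-WT replicate 2. The causes were not tested.

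Over 122 single results, nearly all of them named genes, 836 alternative values kept their direction and side of the threshold. A further 272 kept their direction but no longer passed, while 2 reversed (the IgM values above). The plasma cell, IgA and cycling shares, which also changed direction above, are not in this tally. The 836 include those after removal of Scrublet calls, which took out 0 plasma cells and so changed no fit within them. Depth is a limit, beside the 2 libraries per genotype. The 22 to 65 plasma cells per library, and 4 to 7 cells in the smallest classes of both Smc3-WT libraries, leave weakly expressed genes undetected.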

Other observations

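Genes of cohesin, the complex that holds SMC3, were also set beside their B cell levels. Of 13 measured genes of cohesin and its regulators, 0 had a ratio of at least 2 over B cells and 3 a ratio of at most 0.5, beside 21.8% of all genes: Stag2 averaged 134 CPM in plasma cells and 372 CPM in B cells, Pds5a averaged 132 CPM in plasma cells and 346 CPM in B cells, and Pds5b averaged 86.0 CPM in plasma cells and 252 CPM in B cells. Smc3 averaged 112 CPM in plasma cells and 111 CPM in B cells. All of these are plain CPM, in which the immunoglobulin UMIs of plasma cells lower every other gene. Since the rule chose the cells on RNA, these are descriptions.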
